A study of Mus musculus with 2 samples.

Results

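The genes described here are 50 kinetochore, spindle and cytokinesis genes of the mouse, taken by their GENCODE M21 symbols from a list. That list was chosen with earlier results of these data known. All 50 were found in the gene quantifications of both libraries, among 55536 annotated genes. The libraries were polyA RNA-seq of whole liver from B6NCrl mouse embryos of 12.5 days, with male and female embryos pooled. Both belong to a single group of 2 replicates, one pool of 120 embryos (replicate 1) and one pool of 88 embryos (replicate 2). The labels give no treatment, genotype or second stage, so every comparison below is between genes, between the replicate pools, or between 2 annotations of the same library. Values are in TPM, the usual length-normalised abundance unit, which divides reads by transcript length, and values in pairs are replicate 1 and then replicate 2. With 2 libraries no test between conditions was possible, and errors are the SD over the 2 pools.

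Chromosomes are pulled apart in mitosis by microtubules that attach at kinetochores, protein assemblies built on centromeric nucleosomes that carry the histone variant CENP-A. A checkpoint holds back anaphase until every kinetochore is attached, and the anaphase-promoting complex with its activator CDC20 then releases separase, which cuts the cohesin between sister chromatids. At this stage the liver is the main site of blood formation, and it holds many dividing red cell precursors beside hepatoblasts. In these libraries the red cell genes Hbb-bs, Slc4a1 and Gata1 had 59316 and 61156, 766 and 813, and 131 and 124 TPM. The hepatoblast gene Afp had 5250 and 5065 TPM and Hnf4a had 12.9 and 12.6 TPM. In whole tissue, fewer cells of a type and less RNA per cell cannot be told apart, and a level here is an average over dividing and resting cells of all types.

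All 50 genes reached 1 TPM in both libraries, against 53.5% of 22028 protein-coding genes, and all 50 also reached 10 TPM, against 31.5%. At 100 TPM stood 14 of the 50, against 5.30% of all protein-coding genes. That count was 10 when read counts were divided by the length of the main full-length coding transcript. The share of all genes was not computed on that scale. The median of the 50 was 54.4 and 55.5 TPM (mean 54.9 ± 0.753, SD, n = 2), and the median of all protein-coding genes was 1.81 ± 0.0177 TPM. The most abundant was Birc5 at 311 ± 2.64 TPM and the least abundant was Cenpu at 18.0 ± 0.898 TPM, a span of 17.3-fold. The span was 22.6-fold under the earlier annotation, GENCODE M4, and 33.9-fold when counts were divided by the length of the main full-length coding transcript. Each gene rested on between 813 and 10608 expected counts per library, so counting error was small. The 50 genes together took 0.387% of all TPM in each library.

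**Figure D1:**
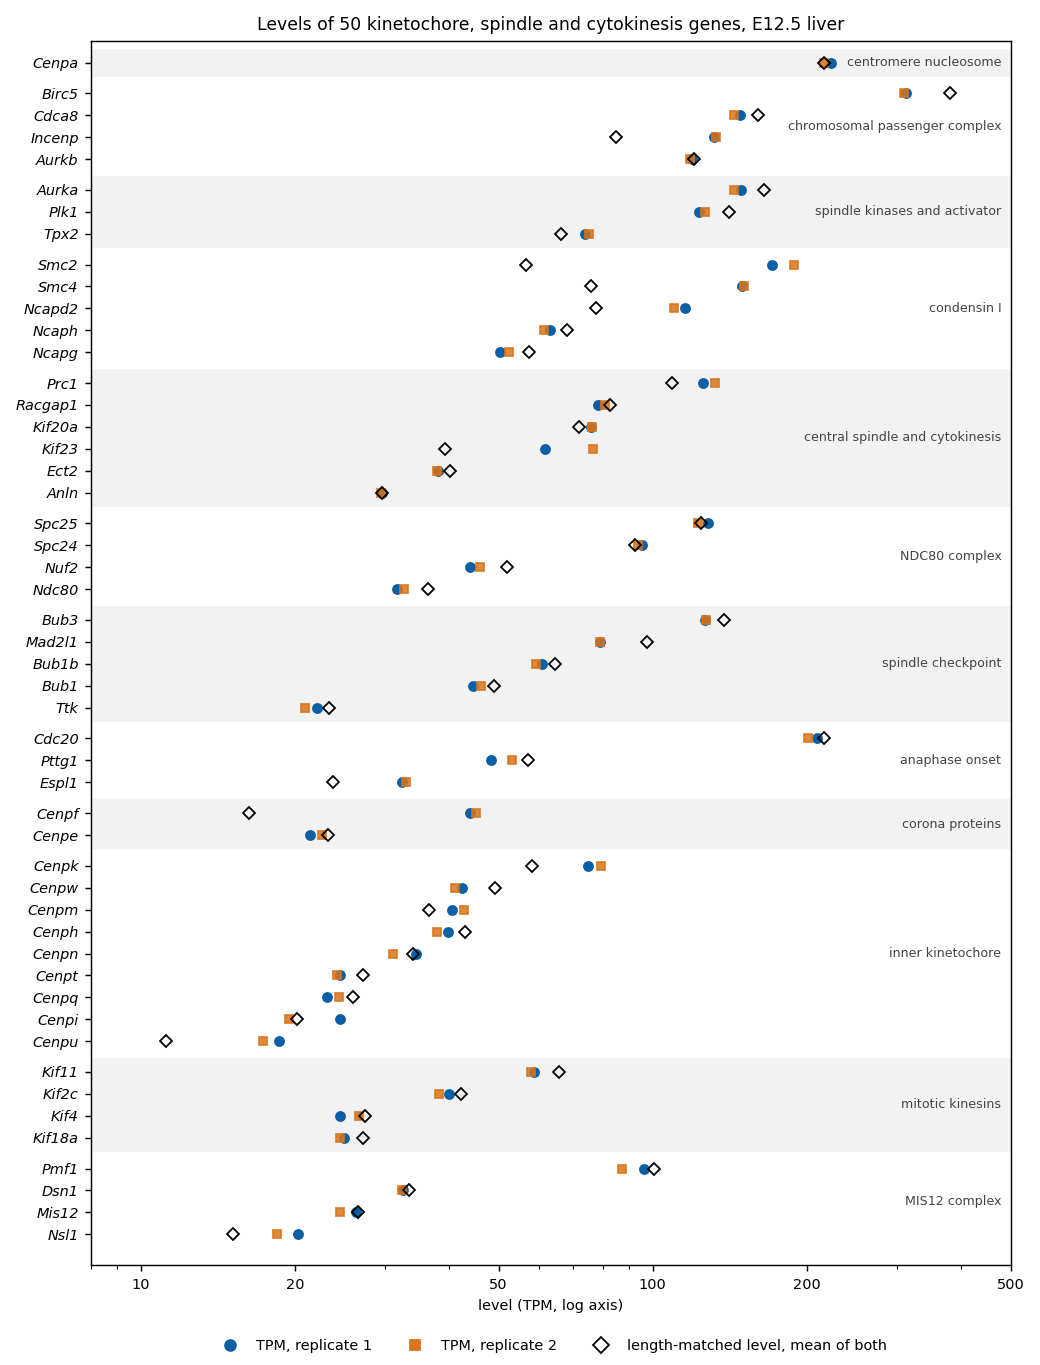
Levels of the 50 genes by role, on a log axis in TPM, with roles ordered by their median. Circles and squares are the TPM of replicates 1 and 2, and open diamonds are the mean length-matched level. All TPM values lie above 10, Birc5 lies highest at 313 and 309 TPM, and in 6 genes (Smc2, Smc4, Incenp, Kif23, Cenpf and Cenpu) the diamond is more than 1.5-fold away from the TPM values.

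The order of levels was only partly resolved. In 28 of the 49 neighbouring pairs of the ranking the ranges of the 2 libraries overlapped. The coefficient of variation of TPM between the pools had a median of 2.14% and was under 5% in 41 of the 50. The largest were 16.1% in Cenpi and 15.3% in Kif23. In Kif23, the motor of centralspindlin, TPM was 61.6 and 76.5 on 3629 and 3585 counts, and the effective length by which the counts were divided was 0.859 times as long in replicate 2 as in replicate 1. Its 2 libraries thus differed in the assigned transcript lengths more than in reads.

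Promoter sequence was examined next, because promoters of late cell cycle genes are known to carry a cell cycle homology region (CHR) near the start and CCAAT boxes upstream of it. The CHR is bound by the MuvB complexes, with B-MYB when these genes are activated and with DREAM subunits when they are repressed, and CCAAT boxes are bound by NF-Y. RefSeq promoters of GRCm38.p6, 250 bases before to 50 after the start, were at hand for 43 of the 50 genes, as 48 promoters because some genes have more than 1 start. Those of Aurkb, Incenp, Kif20a, Nsl1, Smc4, Spc24 and Tpx2 were not examined. The CHR letters TTTGAA or TTCGAA, on either strand (TTCAAA is TTTGAA read on the other strand, and TTCGAA reads the same on both), were in 64.6% of the 48 promoters and in 19.2% of all 32851 promoters of the table. CCAAT on either strand (ATTGG on the other) was in 77.1% of the 48 and in 37.4% of all. A match is a description of letters, not a site shown to be bound.

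The matches were not spread evenly along the promoters. CHR letters lying wholly within 50 bases of the start were in 54.2% of the 48 promoters and in 4.21% of the 20150 promoters of protein-coding genes. The share was 3.90% among promoters of the protein-coding genes at 10 TPM or more in both libraries, and 11.1% among 18 promoters of a list of 20 DNA replication genes. CCAAT was in 72.2% of those 18 replication gene promoters. CHR letters and CCAAT stood together in 58.3% of the 48 promoters, in 22.2% of the replication gene promoters and in 6.86% of all protein-coding ones. The median GC content was 59.0% in the 48 promoters, 57.3% in the replication gene promoters and 57.0% in the protein-coding ones.

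**Figure D2:**
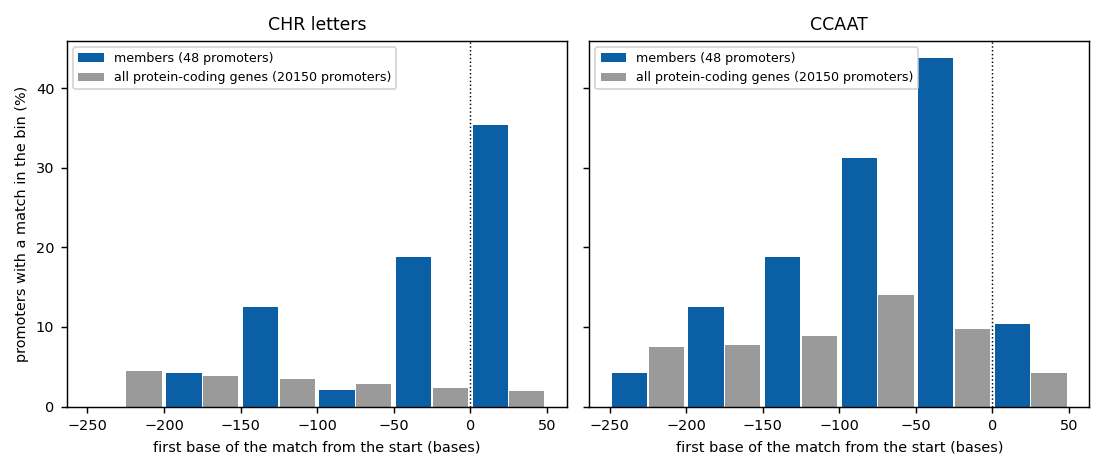
Share of promoters with a match, in % and in bins of 50 bases by the position of the first base of the match from the transcription start, for CHR letters (left) and CCAAT (right). Blue bars are the 48 promoters of the kinetochore, spindle and cytokinesis genes and grey bars the 20150 promoters of protein-coding genes. CHR letters peak in the 50 bases from the start onwards (35.4% of the 48 against 1.99%), and CCAAT in the 50 bases before it (43.8% against 9.72%).

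By role, the CHR letters were in all 5 central spindle genes examined (Anln, Ect2, Kif23, Prc1 and Racgap1), in 4 of 5 checkpoint genes and in 3 of 9 inner kinetochore genes, whereas CCAAT was in 8 of those 9. The 28 genes with CHR letters had a median of 59.7 and 58.5 TPM, and the 15 genes without them 32.5 and 32.3 TPM. Both groups spanned a wide range, 22.1 to 223 TPM with the letters and 18.6 to 313 TPM without them in replicate 1. Birc5, the most abundant of all, belongs to the second group. The 100 bases before the start are shown for the genes whose CHR letters lay wholly inside them and whose window held at most 30 bases of annotated exon, and for Birc5, which had neither motif. They are given 5′ to 3′ on the strand of the gene, with CHR letters and CCAAT in capitals.
Cdc20, chr4:118437344-118437443, minus strand: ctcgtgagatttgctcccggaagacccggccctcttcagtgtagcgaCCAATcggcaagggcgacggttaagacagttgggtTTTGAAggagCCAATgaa
Espl1, chr15:102296193-102296292, plus strand: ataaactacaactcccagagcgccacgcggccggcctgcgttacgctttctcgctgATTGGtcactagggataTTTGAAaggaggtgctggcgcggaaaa
Kif11, chr19:37376282-37376381, plus strand: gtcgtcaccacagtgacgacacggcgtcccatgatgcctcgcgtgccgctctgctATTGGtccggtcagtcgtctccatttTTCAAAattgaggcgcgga
Cenpw, chr10:30200541-30200640, minus strand: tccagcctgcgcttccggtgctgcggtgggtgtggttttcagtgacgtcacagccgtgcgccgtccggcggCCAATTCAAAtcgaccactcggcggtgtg
Cenpn, chr8:116921640-116921739, plus strand: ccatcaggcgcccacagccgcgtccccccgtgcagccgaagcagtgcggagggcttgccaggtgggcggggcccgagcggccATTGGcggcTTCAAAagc
Ncapg, chr5:45669825-45669924, plus strand: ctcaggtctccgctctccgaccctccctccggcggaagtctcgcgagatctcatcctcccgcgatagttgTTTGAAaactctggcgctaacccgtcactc
Birc5, chr11:117849137-117849236, plus strand: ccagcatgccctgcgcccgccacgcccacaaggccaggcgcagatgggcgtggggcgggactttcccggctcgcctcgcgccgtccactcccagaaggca
In Cdc20, Espl1, Kif11, Cenpw and Cenpn a CCAAT stood upstream of the CHR letters, and Ncapg had the CHR letters alone in this stretch. In Cenpw the CCAAT and the TTCAAA share 1 base.

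Cenpa, which encodes the centromeric histone variant that marks where kinetochores form, was the second most abundant of the 50. It lies on the plus strand of chr5:30666777-30674830 (mm10) and had 223 and 216 TPM (219 ± 4.50, SD, n = 2) on 8629 and 7780 counts. Its leading transcript, Cenpa-202, is annotated as a target of nonsense-mediated decay, the pathway that degrades mRNAs with early stop codons, and it held 51.7% and 50.8% of the gene's TPM. The main coding transcript, Cenpa-205, held 28.2% and 32.1%. By reads, Cenpa-202 had 3502 and 3095 counts and Cenpa-205 had 2799 and 2867. The authors' posterior SD of these counts was between 2.09% and 2.53%, so the division between the 2 transcripts was well determined within the annotation used.

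The coding transcripts and the decay transcript part after exon 1, which ends at 30667113. In Cenpa-202 an extra exon of 137 bases (30669692 to 30669828) follows, and in Cenpa-205 the exon that starts at 30672464. The last 30 bases of exon 1 and the 44 bases after them are shown from the GENCODE M21 transcripts, with the stop codon that ends the shortened reading frame of Cenpa-202 in capitals.
Cenpa-202: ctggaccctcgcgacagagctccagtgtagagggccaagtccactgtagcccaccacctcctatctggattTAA
Cenpa-205: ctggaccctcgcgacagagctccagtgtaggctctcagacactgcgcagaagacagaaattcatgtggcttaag
The annotated reading frame of Cenpa-202 is 42 codons long, against 134 in Cenpa-205. Under GENCODE M4, which listed 7 Cenpa transcripts in place of 10, the order was turned round. Under M21 Cenpa-205 held less than Cenpa-202, as above, whereas under M4 Cenpa-205 held 48.8% and 51.7% of TPM and Cenpa-202 held 37.6% and 35.2%. Decay-annotated transcripts together held 58.5% and 55.7% of Cenpa TPM under M21, and protein-coding ones 31.8% and 35.3%.

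The inner kinetochore proteins of the constitutive centromere-associated network bridge CENP-A nucleosomes to the outer kinetochore. The 9 examined had a median of 34.5 and 31.2 TPM, and none reached 100 TPM. Cenpk was highest at 74.8 and 79.1 TPM and Cenpu lowest at 18.6 and 17.3 TPM, a ratio of 4.29 ± 0.381 (SD, n = 2). Cenpw, which pairs with CENP-T through a histone fold, was next at 42.4 and 41.1 TPM. It was followed by Cenpm at 40.5 and 42.8 TPM and by Cenph, a partner of CENP-K and CENP-I, at 39.7 and 37.8 TPM, and the library ranges of Cenpw and Cenpm overlapped. Cenpn, which recognises the CENP-A nucleosome, had 34.5 and 31.2 TPM. Cenpt, one of the links to the outer kinetochore, had 24.5 and 24.2 TPM, and its range overlapped that of Cenpq, of the same subcomplex as Cenpu, at 23.1 and 24.3 TPM. Cenpi had 24.5 and 19.5 TPM on 1838 and 1671 counts, and its effective length was 1.23 times as long in replicate 2. In gene TPM all 9 were thus below Cenpa, which stood 2.85-fold above Cenpk by the means. Protein-coding transcripts held 31.8% and 35.3% of Cenpa TPM, against 86.9% and 87.4% of Cenpk TPM. Levels from coding transcripts alone were not compared. Under M4 Cenpa had 199 and 198 TPM and Cenpk 45.9 and 48.7 TPM.

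The Ndc80 complex is the main microtubule coupler of the outer kinetochore, made of an NDC80-NUF2 pair and a SPC24-SPC25 pair. The subunits for one complex were not equal in RNA. Spc25 had 128 and 123 TPM and Spc24 95.4 and 93.7 TPM, whereas Nuf2 had 43.9 and 46.0 TPM and Ndc80 31.6 and 32.6 TPM. Both genes of the SPC pair lay above both of the NDC80 pair in each library, and Spc25 exceeded Ndc80 by 3.91 ± 0.205-fold. By the length-matched level the ratio was 3.42 ± 0.178-fold. A pseudogene annotated as transcribed, 2700099C18Rik, matches Ndc80 at 92.7% identity over 763 bases and had 9.72 and 9.97 TPM. The counts of Ndc80 were 2174 and 2086, with a posterior SD of 0 in both libraries. A division of reads between the gene and the pseudogene was not tested.

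The Mis12 complex joins the inner kinetochore to the Ndc80 complex. Pmf1 was its most abundant subunit at 96.3 and 87.3 TPM and Nsl1 its least at 20.3 and 18.4 TPM, a ratio of 4.75 ± 0.00608. Dsn1, through which Aurora B regulates binding of the complex to CENP-C, had 32.5 and 32.3 TPM and Mis12 26.3 and 24.5 TPM. In the fibrous corona, which assembles on unattached kinetochores, the kinesin Cenpe had 21.4 and 22.6 TPM and Cenpf 44.01 and 45.2 TPM. The order of these 2 genes depended on length: Cenpf exceeded Cenpe by 2.03 ± 0.0410-fold in TPM, but by the length-matched level the ratio was 0.701 ± 0.00507. Cenpf-203, a coding transcript of 3001 bases, held 47.6% and 48.7% of Cenpf TPM, and the full-length Cenpf-204 of 11130 bases held 17.1% and 18.2% of TPM but 53.9% and 55.2% of reads.

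Spindle checkpoint genes spanned 5.90 ± 0.242-fold. Bub3, which binds phosphorylated KNL1 and recruits its partners, had 127 and 127 TPM, and Ttk, the kinase that starts the signal, had 22.1 and 20.9 TPM. Mad2l1, whose product seals CDC20 into the inhibitory complex, had 78.9 TPM in each library. Bub1b, which encodes the BUBR1 subunit of that inhibitory complex, had 60.8 and 59.3 TPM and the kinase gene Bub1 44.5 and 46.3 TPM. None of the 5 overlapped a neighbour in this group. The target of the checkpoint, Cdc20 (chr4:118432901-118437352, minus strand), had 209.7 and 201 TPM on 10608 and 9721 counts. Cdc20 thus exceeded Mad2l1 by 2.60-fold by the means. Under M4 Cdc20 had 219 and 209 TPM and Mad2l1 97.15 and 96.87 TPM. By the length-matched level the means were 216 TPM for Cdc20 and 97.3 TPM for Mad2l1. The ratio was smaller on both of these scales.

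At anaphase onset, Pttg1 encodes securin, the inhibitor of separase, and Espl1 separase itself. Pttg1 had 48.2 and 53.2 TPM and Espl1 32.4 and 33.0 TPM, a ratio of separase to securin of 0.646 ± 0.0365. Under M21 the ratio was as given, and under M4 it was 0.406 ± 0.00378. Pttg1 was the only one of the 50 whose leading transcript differed between libraries. Pttg1-202 led at 45.7% in replicate 1, and Pttg1-203 at 57.4% in replicate 2. The posterior SD of their counts was 16.1% to 20.5%, so the order of these transcripts was poorly determined.

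The chromosomal passenger complex corrects faulty attachments and later acts in cytokinesis. All 4 of its genes were above 100 TPM, the only role with several members of which this held. Birc5 (survivin, chr11:117849251-117855743, plus strand) had 313 and 309 TPM, Cdca8 (borealin) 148 and 144 TPM, the scaffold gene Incenp 131 and 133 TPM, and the kinase gene Aurkb 119 and 118 TPM. Birc5 exceeded Aurkb by 2.62 ± 0.00403-fold. Birc5 was also the highest of the 50 by the length-matched level, at 380.4 ± 5.00 TPM, and Incenp was the lowest of the 4 at 84.6 ± 2.84 TPM.

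Of the spindle kinases, Aurka had 149 and 144 TPM and Plk1 123 and 127 TPM. Tpx2, which activates AURKA on spindle microtubules, had 73.8 and 75.2 TPM. The kinase exceeded its activator by 1.97 ± 0.0670-fold, and Aurka exceeded Aurkb by 1.23 ± 0.0174-fold. Among the kinesins, Kif11, which slides antiparallel microtubules apart, had 58.5 and 57.8 TPM and Kif2c, a microtubule depolymerase, 40.03 and 38.2 TPM. Kif4, a chromokinesin, had 24.5 and 26.6 TPM and Kif18a, which dampens chromosome movements, 24.9 and 24.5 TPM, and the ranges of these last 2 overlapped.

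For the central spindle and cytokinesis, Prc1, which bundles antiparallel microtubules, was highest at 126 and 132 TPM and Anln, an actin and septin scaffold of the cleavage furrow, lowest at 29.6 and 29.4 TPM. The ratio was 4.37 ± 0.173. Racgap1, the partner of the KIF23 motor in centralspindlin, had 78.3 and 80.5 TPM. Kif20a, a kinesin that carries the passenger complex to the central spindle, had 75.7 and 76.1 TPM, and Ect2, the exchange factor that activates RHOA at the furrow, 38.1 and 37.97 TPM. Kif23 relative to Racgap1 stood at 0.869 ± 0.116 under M21 and at 0.405 ± 0.00869 under M4. With the length-matched level it was 0.477 ± 0.0243.

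Condensin I compacts mitotic chromosomes and consists of the SMC2 and SMC4 ATPases and 3 other subunits. In TPM its genes ranged from Smc2 at 171 and 189 TPM to Ncapg at 50.3 and 52.4 TPM, a span of 3.50 ± 0.133-fold. Smc4 had 149 and 151 TPM, Ncapd2 116 and 110.3 TPM, and Ncaph, the kleisin that closes the ring, 63.1 and 61.3 TPM. Short annotated transcripts led in the 2 ATPase genes. Smc2-203, a processed transcript of 643 bases with no annotated reading frame, held 53.8% and 53.3% of Smc2 TPM but 19.3% and 20.2% of its reads. The full-length Smc2-201 of 5404 bases held 57.5% and 57.0% of reads. Smc4-206, of 1163 bases, held 55.7% and 54.2% of Smc4 TPM and 31.7% and 30.3% of reads. By reads the leading Smc4 transcript was Smc4-207, annotated as a target of nonsense-mediated decay, with 42.2% and 41.7%.

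On the scale of the length-matched level, the span of the 5 condensin I subunits narrowed to 1.38 ± 0.0676-fold. The levels were then 77.4 ± 2.48 TPM for Ncapd2, 75.8 ± 1.53 TPM for Smc4, 68.1 ± 1.45 TPM for Ncaph, 57.2 ± 0.970 TPM for Ncapg and 56.6 ± 1.65 TPM for Smc2 (SD, n = 2 each). Smc2 over Ncapg was 0.990 ± 0.0120 on this scale. In the other roles with 4 or more genes the span changed less or widened. The central spindle genes spanned 3.68 ± 0.297-fold on this scale against 4.37 ± 0.173-fold in TPM, the Mis12 genes 6.65 ± 0.0932-fold against 4.75 ± 0.00608-fold in TPM, and the passenger complex genes 4.50 ± 0.210-fold against 2.62 ± 0.00403-fold. This scale was added after the data had been seen and treats all reads of a gene as coming from 1 transcript. For 44 of the 50 genes it lay within 1.5-fold of TPM.

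Transcript use was described for all 50, since each had more than 1 annotated transcript. The leading transcript held under 60% of TPM in both libraries in 15 of them, where this was so for 34.8% of 6609 protein-coding genes at 10 TPM or more with several transcripts. It held at least 80% in both libraries in 23, against 36.6% of those genes. It was not protein coding in 2, Cenpa and Smc2, against 7.88% of those genes, and it was the same in both libraries in 49, against 95.2%. By reads in place of TPM, the leading transcript held under 60% in 10 of the 50, against 22.5%. It was not protein coding in 2 on that scale as well, against 4.09%, but these were Cenpa and Smc4. The leading transcript itself was another one by reads in 5 genes, Cenpk, Cenpf, Incenp, Smc2 and Smc4. The 15 were Cenpa, Cenpk, Cenpm, Cenpu, Cenpf, Incenp, Tpx2, Kif20a, Kif23, Prc1, Espl1, Pttg1, Smc2, Smc4 and Ncapd2. Among them Cenpu-201 led with 30.1% and 32.5%, Prc1-206 with 28.3% and 27.8% and Kif23-201 with 36.9% and 28.9%. Retained-intron transcripts held 44.5% and 44.6% of the TPM of the condensin gene Ncapd2 but 10.0% and 10.3% of its reads.

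**Figure D3:**
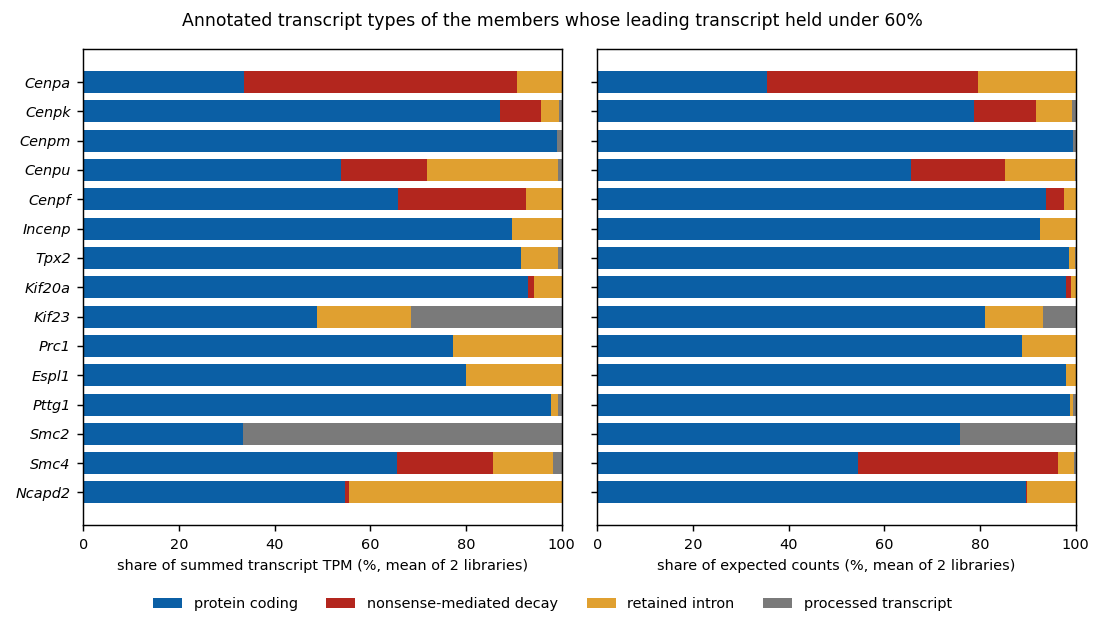
Annotated transcript types of the 15 genes whose leading transcript held under 60% of TPM in both libraries, as shares of summed transcript TPM (left) and of expected counts (right), in % and as means of the 2 libraries. In Smc2 the processed transcripts took 64.5% and 68.7% of TPM but 22.8% and 25.5% of counts, and in Cenpa decay-annotated transcripts took the largest share on both scales.

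Each library was quantified under GENCODE M21 and M4, so that the same reads could be compared under 2 gene models. A ratio past 1.5-fold in both libraries, on the log2(TPM + 1) scale, was found in 3 of the 50, all higher under M21. Over all 13235 genes tested the share was 5.52%, with 4.01% higher and 1.51% lower under M21. Kif23 (chr9:61915905-61946774, minus strand) had 61.6 and 76.5 TPM under M21 and 32.3 and 34.3 TPM under M4, Incenp (chr19:9872296-9899551, minus strand) 131 and 133 TPM under M21 and 73.2 and 77.0 TPM under M4, and Cenpk (chr13:104228611-104252392, plus strand) 74.8 and 79.1 TPM under M21 and 45.9 and 48.7 TPM under M4. The log2 ratios were 0.91 and 1.14 for Kif23, 0.84 and 0.78 for Incenp, and 0.69 and 0.69 for Cenpk.

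The reads of these 3 genes were nearly the same under both annotations. Counts under M21 were 1.07 and 1.08 times those under M4 for Kif23, 1.04 and 1.04 times for Incenp and 1.12 and 1.11 times for Cenpk. The effective lengths were 0.542 and 0.466, 0.559 and 0.581, and 0.661 and 0.657 times those under M4. M21 lists 12, 9 and 8 transcripts for Kif23, Incenp and Cenpk, where M4 listed 1, 1 and 2. Incenp-208 (577 bases) and Cenpk-207 (351 bases), which led their genes in TPM under M21, were not among the M4 transcripts. With expected counts in place of TPM none of the 50 passed 1.5-fold, and 445 of all genes did. Over the 50, M21 TPM was higher in both libraries in 15 genes and lower in 35, and the median log2 ratio was -0.05 in each library, against -0.04 over all genes tested.

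**Figure D4:**
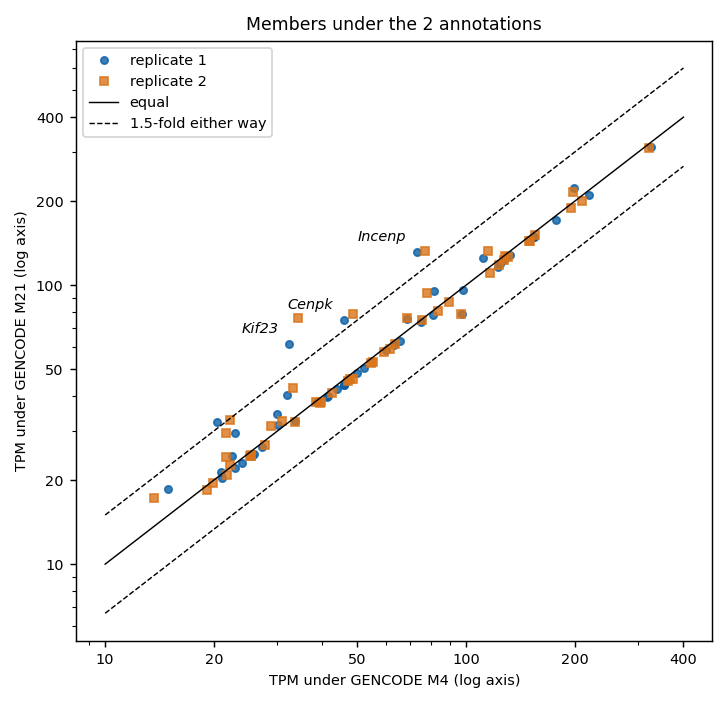
TPM of the 50 genes under GENCODE M21 (vertical) and M4 (horizontal), both axes logarithmic, with circles for replicate 1 and squares for replicate 2. The solid line marks equal values and the dashed lines 1.5-fold either way. Kif23, Incenp and Cenpk lie above the upper line in both libraries, and the other genes lie near the solid line or between the lines, apart from replicate 1 of Espl1.

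The 2 pools were compared gene by gene as the log2 ratio of replicate 2 over replicate 1 after TMM scaling, with an exact Clopper-Pearson 95% interval that covers counting error only. None of the 50 passed 1.5-fold with an interval that excluded the scaled split, where 4.40% of 17343 genes with a mean count of at least 10 did. At a lower threshold of 0.32 on the log2 scale it was again none of the 50, against 7.20%, and at 2-fold none, against 2.35%. Most of the genes called in the background had low counts: among genes with a mean count of at least 100, 96 of 12047 were called at 1.5-fold. The log2 ratios of the 50 ran between -0.12 (Pmf1) and 0.15 (Kif4), with a median of -0.01, and 22 of the 50 were positive.

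At this depth small differences exceeded counting error, but the interval covers no other variation between the 2 pools. The chi-square of the split sets each gene's departure from the scaled split against counting error. Its mean was 3.98 over the 50 and 3.75 over all genes tested, more than counting error alone gives. The interval excluded the scaled split, at any size, in 16 of the 50, 11 higher and 5 lower in replicate 2, against 22.6% of all genes tested. These shares are not like for like. The interval narrows as counts rise, and the 50 had mean counts of at least 884 where all genes tested went down to 10. Kif4 had a log2 ratio of 0.15 (95% interval 0.08 to 0.22), Espl1 0.12 (0.06 to 0.18), Cenpf 0.10 (0.04 to 0.16) and Prc1 0.10 (0.05 to 0.14). Among the 5 lower in replicate 2 were Pmf1 at -0.12 (-0.20 to -0.04) and Spc24 at -0.08 (-0.15 to -0.01). Scaled to the spike-in totals, all log2 ratios fell by 0.12 relative to TMM scaling, and 2 of the 50 were positive.

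**Figure D5:**
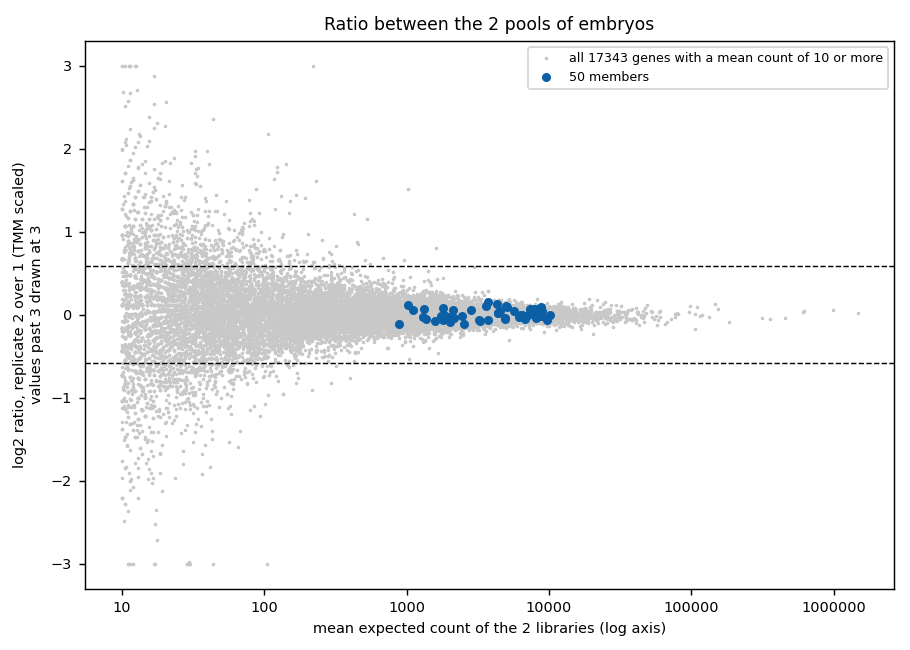
Log2 ratio of replicate 2 over replicate 1 after TMM scaling against the mean expected count on a log axis, for 17343 genes (grey) and the 50 genes (blue), with dashed lines at 1.5-fold. The blue points lie between -0.12 and 0.15 and above a mean count of 884.

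Related gene lists give the setting for these levels. Of 24 other kinetochore and centromere genes, 23 reached 10 TPM in both libraries and 2 reached 100 TPM, with a median of 27.8 and 28.2 TPM. Highest were Zwint, a KNL1 partner, at 175 and 168 TPM, Cenpx at 115 and 109 TPM and Hjurp, the chaperone that loads CENP-A, at 89.2 and 87.1 TPM. Of 20 other spindle and cytokinesis genes, 17 reached 10 TPM, with a median of 43.9 and 45.2 TPM. They were led by Tacc3, which stabilises kinetochore fibres, at 167 and 169.6 TPM, the chromokinesin Kif22 at 106 and 109.95 TPM and the microtubule bundler Nusap1 at 75.6 and 76.3 TPM.

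All 15 genes of the anaphase-promoting complex and its regulators reached 10 TPM, with a median of 73.3 and 72.2 TPM. Its ubiquitin-conjugating enzymes Ube2c and Ube2s had 577 and 559 TPM and 310.3 and 295 TPM, and the subunit Anapc5 had 286 and 276 TPM. Ube2c thus lay above every one of the 50. Of 15 cohesin and condensin II genes 14 reached 10 TPM, with a median of 36.0 and 36.1 TPM. Ncaph2 of condensin II had 112 and 112 TPM, the cohesin ATPase gene Smc1a 61.6 and 63.1 TPM and Ncapg2 52.6 and 56.5 TPM. The 20 DNA replication genes had the highest median of these lists, 149 and 146 TPM, and were led by Rrm2 of ribonucleotide reductase at 463 and 443.8 TPM, the sliding clamp gene Pcna at 296 and 301 TPM and the helicase gene Mcm6 at 288 and 289 TPM.

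Of 13 germline and other paralogues of these genes, 4 reached 10 TPM in both libraries, led by the centriole kinase gene Plk4 at 49.5 and 47.9 TPM, Kif2a at 25.1 and 30.7 TPM and Mad2l2 at 21.4 and 20.2 TPM. Aurkc, the meiotic Aurora kinase gene, had 2.22 and 0 counts beside 6527 and 5881 counts for Aurkb. Kif2b, Cdc20b and Rad21l had 0 counts in both libraries, which allows up to 3 counts in each and covers counting error only. With a mean count of at least 10, 7 of the 13 could be compared between the pools, and none of these 7 passed 1.5-fold, against 4.40% of all genes tested.

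Some counts could include reads of neighbours or copies, since the use of strand in counting was not stated. Annotated exons of 12 of the 50 overlapped exons of a protein-coding gene on the opposite strand. The share over all protein-coding genes was not computed, so this count does not set the 50 apart. As shares of the gene's exon bases the largest overlaps were 1271 bases between Kif20a and Cdc23 (29.3%, with Cdc23 at 56.2 and 55.4 TPM), 1069 bases between Cenpu and Primpol (26.7%, with Primpol at 11.0 and 9.82 TPM) and 832 bases between Kif4 and Pdzd11 (15.1%, with Pdzd11 at 59.1 and 56.4 TPM). The posterior SD of the gene count was 0.304% and 0.312% in Kif20a, 1.38% and 1.81% in Cenpu, and 0.280% and 0.263% in Kif4. Over the 50 it was at most 1.81% (Cenpu) and was 0 in both libraries in 34 genes. The part of overlaps and copies in the levels was not tested.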

How the data were processed

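Per the labels' protocols, each library began with 10 ng of mirVana-extracted RNA and ERCC spike-ins, and was made with SMARTer Ultra Low cDNA synthesis and Nextera tagmentation. The expected counts were deposited by the authors as reads divided among genes or transcripts, and need not be whole. TPM values and posterior mean TPM were deposited by the authors, and follow from these counts and the lengths and effective lengths (in bases) of the deposited tables. The posterior SD of a count is a score deposited by the authors for the uncertainty of that division. Transcript shares in percent were deposited by the authors too, but were computed again here from TPM. The aligner, the quantifier and the use of strand were not given in the sources used here. The notes deposited with the libraries name mm10 and, for each table, GENCODE M21 or M4. The summed expected counts of the 55536 annotated genes were 37190042 and 34291772, and 26248 entries named by bare numbers and 96 spike-ins were left out of library sizes. Spike-ins took 4.99% and 5.40% of TPM.

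The genes, their roles and the other lists were chosen with earlier results of these data known. All 50 may be named; the highest and lowest of each role, those past a threshold, and the 3 highest of each other list are given in full. Gene identifiers were matched to the GENCODE M21 annotation for names, types and positions. Pools were scaled by TMM (edgeR 4.0.16, R 4.3.3) and their split given an exact 95% Clopper-Pearson interval (SciPy 1.17.1, Python 3.11.15), with a prior count of 0.5 for the ratio and a minimum mean count of 10. The calling step was tested on simulated counts with counting error only, which leave out any other variation between the pools. Annotations were compared as log2((TPM under M21 + 1)/(TPM under M4 + 1)) for genes at 1 TPM or more under either. DESeq2 1.42.0 size factors were an alternative scaling. The length-matched level divides a gene's counts by the effective length of its longest protein-coding transcript with at least 15% of its reads in both libraries (otherwise the coding transcript with most reads), scaled to the TPM total. Copies were sought with BLAST 2.17.0 among GENCODE M21 transcripts, at 90% identity over 300 bases or more. Marker genes of endothelium, mesenchyme, megakaryocytes and macrophages were measured as well: all 15 were above 1 TPM in both libraries. The highest of each type, in that order, were Stab2 at 26.6 and 22.5 TPM, Col3a1 at 161 and 161 TPM, Pf4 at 724 and 623 TPM and C1qb at 44.6 and 45.7 TPM. The lowest of the 15 was Des at 5.76 and 6.17 TPM. Protein sequences were not used here.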

Additional observations from a re-analysis of the deposited data

How the results depend on the processing

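All 50 genes stayed at 10 TPM or more in both libraries under every alternative run. The count at 100 TPM or more, 14, was 13 under M4 and 10 with the length-matched level. The median of 54.9 TPM became 57.9 when TPM was rescaled to annotated genes, 54.1 with posterior mean TPM, 49.8 under M4 and 56.5 with the length-matched level. For each of 11 roles, the gene highest and the gene lowest in M21 TPM were taken as a fixed pair. The median of these 11 ratios, 3.91, was 3.49 under M4 and 3.42 with the length-matched level. On the length-matched scale Cenpf over Cenpe turned to 0.701 and Smc2 over Ncapg to 0.990. The pairs were not chosen again, so 3.49 and 3.42 are not medians of the highest over lowest gene on those scales. Under M4, for example, Incenp at 75.1 TPM lay below Aurkb at 124 TPM (means). Calls between pools stayed at 0 of the 50 under all scalings, filters and folds tried, while those over all genes (763) became 96 at a mean count of at least 100, 1248 at the lower fold, 407 at 2-fold and 1109 without a filter. With expected counts in place of TPM the annotation calls were 0 of the 50 and 445 in all, and by construction this leaves transcript lengths out. Under M4, 9 genes had a leading transcript under 60% and 1 a leading transcript that is not protein coding, in place of 15 and 2 under M21. With shares of reads these were 10 and 2 genes, with Smc4 in place of Smc2 in the second count. M4 listed 1 transcript each for Espl1, Incenp and Kif23, all among the 15. Their leading share under M4 was thus 100% by construction. No share over all genes was computed under M4. The span from Birc5 to Cenpu, 17.3-fold, was 22.6-fold under M4 and 33.9-fold with the length-matched level. Within 100 bases before to 50 after the start, CCAAT was in 62.5% of the 48 promoters and in 61.1% of the replication gene promoters. In the same window it was in 24% of the protein-coding promoters and in 23.4% of all promoters. Leaving out a library in turn gave medians of 54.4 to 55.5 TPM, 3 to 4 annotation calls (Espl1 the fourth, without replicate 2) and 16 genes with a leading transcript under 60%. Leaving out a library of the pool comparison leaves no ratio. No paired analysis was possible because the 2 libraries form 1 group. The 2 libraries allow no estimate of spread beyond their SD.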
